A study of Mus musculus with 32 samples.

Results

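Apolipoproteins and the proteins that receive, export and hydrolyze lipoprotein lipid were examined as a group of 8 genes: Apoe, Apod, Clu, Abca1, Lrp1, Vldlr, Scarb1 and Lpl. They were selected by gene name, with earlier results of these libraries known, from the 24952 genes measured, and all 8 passed the filter on low counts, as did 13990 genes in total. The values are therefore described and are not used as evidence that lipoprotein genes as a class respond. RNA came from regions of tibialis anterior (TA) muscle at the neuromuscular junction (NMJ) and away from it (xNMJ, extra-synaptic), which were cut by laser from cross sections in which a fluorescent bungarotoxin marked the acetylcholine receptors of the NMJ. All mice were male, wild type C57BL/6JRj animals, singly caged and fed the AIN93M diet, for 2 to 3 months in the group aged 10 months and for 16 months in the group aged 30 months. Age (10m or 30m) and region give 4 groups of 8 libraries, 32 in all. Each library pools many captured regions, and whether equally numbered libraries of both regions came from one animal is not given in the labels, so that p values measure the spread between these libraries.

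Lipoproteins carry cholesterol, triglyceride and other lipids in a shell of phospholipid and apolipoproteins, which solubilize the particle and act as ligands for receptors. ApoE is made by liver but also by macrophages and glia, ApoD is a lipocalin that is abundant in peripheral nerve and its fibroblasts, and clusterin (Clu) is a secreted chaperone also known as apolipoprotein J. In muscle, lipoprotein lipase (Lpl) is made by the fibers and moves to the capillary wall, where it releases fatty acids from triglyceride-rich particles for uptake.

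Total counts ranged from 4026648 to 16516788 per library, and their medians at 10 months were 6062117 (xNMJ) and 9605869 (NMJ), and at 30 months 6790011 (xNMJ) and 9825357 (NMJ). Levels of one gene across libraries are given as CPM, counts scaled to library size after TMM normalization. The 8 genes are set beside each other only in TPM, which is corrected for transcript length. The most abundant gene of each marker list was taken by its mean CPM over all 32 libraries, without that correction. On this CPM scale, the floor of 3 counts lay between 0.152 and 0.931 across the libraries, for counting error only. Among the 8 genes, only Abca1 reached this floor, in 1 library (2 counts in 10m xNMJ replicate 6). One library stood apart from its label. In 30m xNMJ replicate 5 the summed CPM of 6 genes of subsynaptic nuclei was 260, whereas the median of its group was 15.7 and the lowest 30m NMJ library held 903. Several values are also given without it.

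Apoe and Apod were the members with the largest difference between regions, and both were higher in NMJ at both ages. Lrp1, a large endocytic receptor, was also higher in NMJ at both ages, Clu was higher at 10 months, and Lpl was lower in NMJ at both ages. At 10 months the edgeR quasi-likelihood test called 4 of 8 members higher and 1 lower at an adjusted p under 0.05, where 6.50% of all tested genes were called higher and 5.05% lower (11.5% in all). At 30 months it called 3 higher and 1 lower, where 5.0% and 4.25% of all genes were called (9.26% in all). Members were chosen with these contrasts known, so nothing is read from these shares. The median log2 fold change of the 8 genes was 0.71 at 10 months and 0.45 at 30 months, and that of all tested genes was 0.00 and -0.01. Apoe, Apod and Lrp1 were among 472 genes called higher in NMJ at both ages, and Lpl was among 435 called lower. In bulk tissue, more cells of a type and more RNA per cell cannot be told apart.

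**Figure D1:**
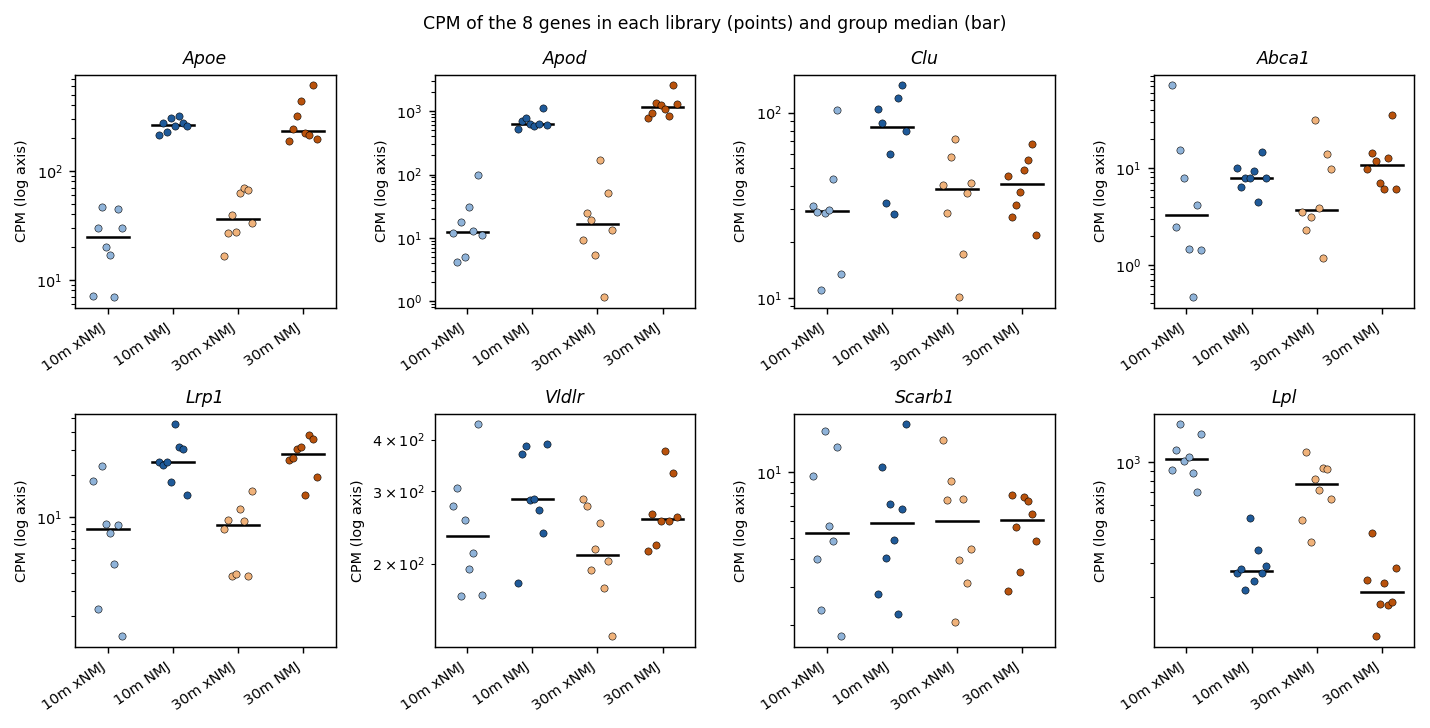
CPM of each of the 8 genes (log axis, with its own range in each panel) in each library of the 4 groups. Points are libraries and bars are group medians. Apoe and Apod separate NMJ from xNMJ at both ages, Lpl is lower in NMJ, and Scarb1 overlaps across all groups.

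Apoe (ENSMUSG00000002985, chromosome 7 from 19696109 to 19699188, GRCm38), a ligand of several lipoprotein receptors, ranged from 6.93 to 46.7 CPM in 10m xNMJ, with a median of 24.9. In 10m NMJ it ranged from 212 to 319 CPM, with a median of 267. No NMJ library overlapped with xNMJ, and its level varied little between the 10m NMJ libraries (coefficient of variation 13.4%). In 30m xNMJ it ranged from 16.4 to 69.2 CPM (median 36.2) and in 30m NMJ from 187 to 613 CPM (median 232). The regions did not overlap at this age either, and the spread in 30m NMJ was wider (49.4%), with the highest value in replicate 7. The log2 fold change of NMJ against xNMJ was 3.39 ± 0.36 (SE) at 10 months and 2.83 ± 0.35 at 30 months, and 2.60 at 30 months without 30m NMJ replicate 7.

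Apod (ENSMUSG00000022548, chromosome 16 from 31296192 to 31314808) ranged from 4.25 to 97.5 CPM in 10m xNMJ (median 12.4) and from 523 to 1119 CPM in 10m NMJ (median 627). In 30m xNMJ it ranged from 1.16 to 169.5 CPM (median 16.3) and in 30m NMJ from 784 to 2578 CPM (median 1179). Every NMJ library thus exceeded every xNMJ library of its age, and the xNMJ libraries spread more widely around their mean than the NMJ libraries. At 10 months the coefficient of variation was 129% in xNMJ and 26.8% in NMJ, and without replicate 7, the highest of each, 67.1% and 12.9%. The 30-month value was 152% in xNMJ, or 95.0% over 1.16 to 51.8 CPM without replicate 5, and 44.9% in NMJ, or 21.5% without replicate 7. The log2 fold change was 4.85 ± 0.68 at 10 months and 5.09 ± 0.69 at 30 months. The highest 30m xNMJ library was replicate 5, the library that also carried subsynaptic RNA, and without it the fold change at 30 months was 6.15 ± 0.65. Without 10m xNMJ replicate 7, which held the 97.5 CPM, the fold change at 10 months was 5.71. Groups without overlap were thus seen for 2 of 8 members in the higher direction at each age, where 2.22% of all tested genes at 10 months and 1.96% at 30 months had no overlap in this direction.

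Clu (ENSMUSG00000022037, chromosome 14 from 65968483 to 65981547) ranged from 11.1 to 103 CPM in 10m xNMJ (median 29.5) and from 28.4 to 141 CPM in 10m NMJ (median 83.95). At 30 months it ranged from 10.1 to 72.2 CPM in xNMJ (median 38.6) and from 21.95 to 67.6 CPM in NMJ (median 41.3). The regions overlapped at both ages, and all 8 libraries of 30m NMJ lay below the median of 10m NMJ. The log2 fold change between regions was 1.17 ± 0.39 at 10 months and 0.14 ± 0.39 at 30 months. The latter was 0.00 without 30m xNMJ replicate 5, the lowest library of its group, and 0.34 without replicate 4, the highest. The call at 10 months was near the threshold: it held in 11 of 32 fits that left out 1 library, and was lost without a filter on low counts, in a fit of only the groups compared and with insert size as a covariate. The interaction of age and region for Clu was -1.02 ± 0.55 and was not called.

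The promoters of the 3 members called higher in NMJ at both ages are shown because these genes moved in the same direction. The set of promoter windows used here held 300 bases around a RefSeq start site (GRCm38.p6), from 250 bases before to 50 after it. It covered 5 of the 8 genes. Windows of Clu, Scarb1 and Lpl were not in this set, which says nothing about their annotation. For Apoe, which has 3 windows, the one whose start site is the 5′ end of the annotated gene is shown. The windows are written 5′ to 3′ on the minus strand of each chromosome, at chr7:19699139-19699438 for Apoe, chr16:31314759-31315058 for Apod and chr10:127621099-127621398 for Lrp1, with capitals for a motif match.
Apoe: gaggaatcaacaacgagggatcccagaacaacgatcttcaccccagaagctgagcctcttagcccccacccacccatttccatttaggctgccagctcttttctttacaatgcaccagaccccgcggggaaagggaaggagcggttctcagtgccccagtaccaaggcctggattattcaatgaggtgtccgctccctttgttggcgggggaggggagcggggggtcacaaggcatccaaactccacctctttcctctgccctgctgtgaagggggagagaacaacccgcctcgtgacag
Apod: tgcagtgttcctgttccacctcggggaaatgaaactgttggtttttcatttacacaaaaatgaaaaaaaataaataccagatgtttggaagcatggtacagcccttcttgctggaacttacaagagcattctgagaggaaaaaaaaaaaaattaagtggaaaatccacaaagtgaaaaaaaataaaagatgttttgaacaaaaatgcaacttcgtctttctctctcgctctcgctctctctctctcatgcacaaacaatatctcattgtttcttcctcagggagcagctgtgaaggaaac
Lrp1: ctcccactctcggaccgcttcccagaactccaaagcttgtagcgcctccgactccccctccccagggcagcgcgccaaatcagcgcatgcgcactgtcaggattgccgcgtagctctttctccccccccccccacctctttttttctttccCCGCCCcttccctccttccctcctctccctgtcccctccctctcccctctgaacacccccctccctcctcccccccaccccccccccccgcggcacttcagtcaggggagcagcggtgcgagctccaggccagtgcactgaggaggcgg
Motifs were searched on both strands, namely the N-box of synaptic promoters (CCGGAA), the CCAAT box, the TATA box (TATAAA), the GC box (GGGCGG) and a nuclear receptor motif (AGGTCA). Of the 3 windows shown, only that of Lrp1 held one, a GC box read on the opposite strand, which 35.7% of all 32851 promoter windows hold. The N-box letters are in 14.9% of windows and in none of these 3. Of the other windows of Apoe, one held TATAAA on both strands, 96 and 100 bases before its start site. The windows differed in base composition, with a GC content of 37.3% for Apod, 57.7% for Apoe and 67.7% for Lrp1. A match is a description of letters, not of a bound site.

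Lrp1 (ENSMUSG00000040249, chromosome 10 from 127538161 to 127621148), which internalizes ApoE-containing remnants and many other ligands, ranged from 1.42 to 23.1 CPM in 10m xNMJ (median 8.22) and from 14.4 to 45.4 CPM in 10m NMJ (median 24.7). In 30m xNMJ it ranged from 3.82 to 15.4 CPM (median 8.76) and in 30m NMJ from 14.4 to 38.4 CPM (median 28.2). At 10 months 6 of 8 NMJ libraries, and at 30 months 7 of 8, exceeded every xNMJ library of their age. The log2 fold change was 1.51 ± 0.40 at 10 months and 1.75 ± 0.41 at 30 months. An antisense gene, Gm16217, overlaps Lrp1, and the libraries do not mark strand, so reads from a stretch that both share cannot be told apart. Whether exons of both overlap was not examined.

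Vldlr (ENSMUSG00000024924, chromosome 19 from 27216484 to 27254231), a receptor for triglyceride-rich particles and for reelin, had the highest median TPM in every group among the receptors Lrp1, Vldlr and Scarb1. It ranged from 167 to 435 CPM in 10m xNMJ (median 233) and from 179 to 391 CPM in 10m NMJ (median 286). At 30 months it ranged from 133 to 287 CPM in xNMJ (median 210) and from 214 to 376 CPM in NMJ (median 257). The ranges overlapped widely, although 7 of 8 NMJ libraries at 10 months and 8 of 8 at 30 months lay above the xNMJ median of their age. Its log2 fold changes, 0.26 ± 0.20 at 10 months and 0.33 ± 0.20 at 30 months, were not called. In TPM without TMM scaling, limma on log2(TPM + 1) gave 0.75 ± 0.20 and 0.92 ± 0.20, which was called, but on that scale the median of all tested genes was itself shifted by 0.37 and 0.49.

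Scarb1 (ENSMUSG00000037936, chromosome 5 from 125277087 to 125341094), the HDL receptor, was low in all groups. At 10 months its medians were 5.26 (xNMJ) and 5.83 (NMJ) CPM, at 30 months 5.95 (xNMJ) and 6.03 (NMJ) CPM, and the libraries ranged from 1.78 to 16.5 CPM. A gene model not assigned to a class, Gm42633, overlaps Scarb1 on the same strand, and reads from a stretch that both share cannot be told apart. None of the groups separated, and the log2 fold changes between regions were -0.05 ± 0.46 at 10 months and -0.16 ± 0.46 at 30 months. At 10 months the value was -0.37 without 10m NMJ replicate 8 and 0.21 without 10m xNMJ replicate 4. At 30 months it was -0.29 without 30m xNMJ replicate 4 and 0.10 without 30m xNMJ replicate 1. With an SE of 0.46, a moderate difference in either direction was not detectable.

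Abca1 (ENSMUSG00000015243, chromosome 4 from 53030787 to 53159895), which exports cholesterol and phospholipid to apolipoproteins, had the lowest median TPM of the 8 genes in every group, and the widest spread of them in 10m xNMJ (coefficient of variation 185%, and 112% without replicate 1). It ranged from 0.462 to 72.0 CPM in 10m xNMJ (median 3.30) and from 4.49 to 14.6 CPM in 10m NMJ (median 7.88). At 30 months it ranged from 1.16 to 31.8 CPM in xNMJ (median 3.69) and from 6.01 to 35.1 CPM in NMJ (median 10.8). All 8 NMJ libraries lay above the xNMJ median at both ages, yet the fitted log2 fold change was -0.60 ± 0.70 at 10 months and 0.56 ± 0.70 at 30 months, neither called. The value at 10 months was set by 10m xNMJ replicate 1, which held the 72.0 CPM, and was 0.85 without it. At 30 months the value was 1.25 without 30m xNMJ replicate 4 and 0.15 without 30m NMJ replicate 7. No direction can be given for Abca1 from these libraries.

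Lpl (ENSMUSG00000015568, chromosome 8 from 68880491 to 68907448) was the only member called lower in NMJ. It ranged from 698 to 1563 CPM in 10m xNMJ (median 1034) and from 219 to 512 CPM in 10m NMJ (median 274). At 30 months it ranged from 386 to 1130 CPM in xNMJ (median 767) and from 125 to 427 CPM in NMJ (median 213). The regions did not overlap at 10 months, which was the case for 1.19% of all tested genes in this direction. At 30 months 7 of 8 NMJ libraries lay below every xNMJ library, and only replicate 2 overlapped with the lowest of them (0.500% of all genes had no overlap in this direction). The log2 fold change was -1.83 ± 0.23 at 10 months and -1.69 ± 0.23 at 30 months. Over all 32 fits without 1 library it lay between -1.98 and -1.74 at 10 months and between -1.87 and -1.58 at 30 months.

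**Figure D2:**
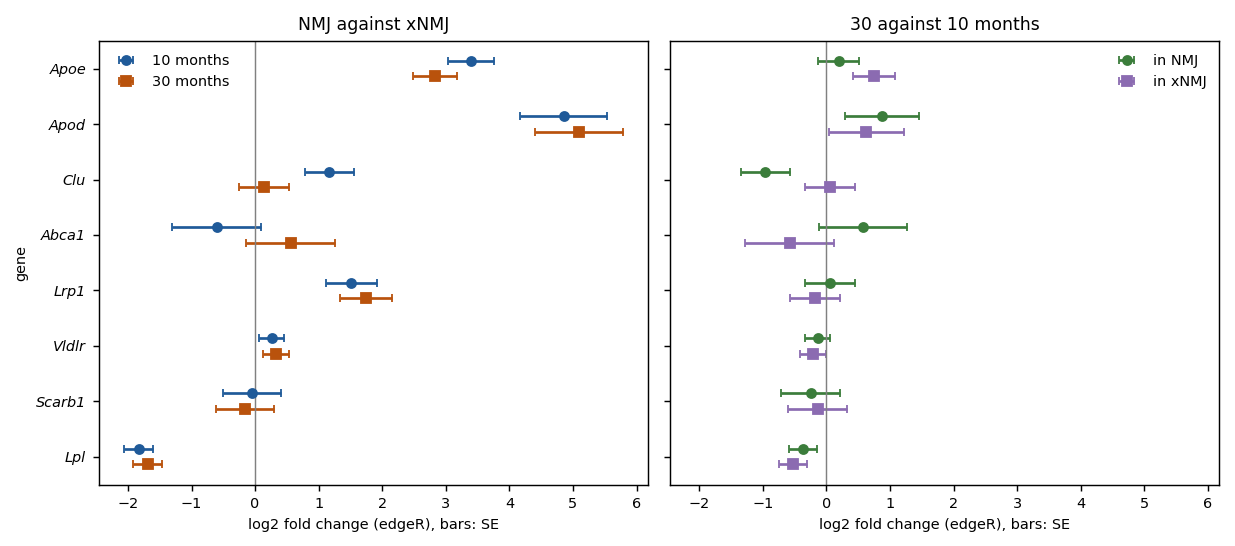
Fitted log2 fold change (x axis) of each gene (y axis) between regions at 10 and 30 months (left) and between ages in NMJ and in xNMJ (right), with bars for the SE. Apod (4.85 and 5.09) and Apoe (3.39 and 2.83) stand far to the right of 0 and Lpl (-1.83 and -1.69) to its left, while differences between ages lie within 0.96 of 0.

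The order of the 8 genes by median TPM differed between regions. In 10m xNMJ it was led by Lpl (275 TPM), followed by Vldlr (41.1), Clu (20.7) and Apoe (17.6). In 10m NMJ Apod led (754 TPM), ahead of Apoe (313), Lpl (95.4) and Clu (74.3). Both apolipoproteins thus stood above Lpl in NMJ and below it in xNMJ. At 30 months Lpl again led in xNMJ (199 TPM), and Apod (1489 TPM) and Apoe (292 TPM) led in NMJ. With 1489 TPM in 30m NMJ, Apod was exceeded by 111 of the 13990 tested genes, and in 10m xNMJ, with 11.6 TPM, by 3371. In both NMJ groups Apod, Apoe and Lpl were neighbors whose libraries did not overlap, and in both xNMJ groups Lpl was separate from Vldlr. The libraries of Clu and Vldlr overlapped in 10m xNMJ, 10m NMJ and 30m xNMJ, but in 30m NMJ every Vldlr value (from 56.2 TPM) exceeded every Clu value (up to 53.1 TPM). In 10m NMJ Lpl (86.6 to 160.5 TPM) overlapped with Clu (23.9 to 118.6 TPM). In 30m NMJ Lpl (54.3 to 170.2 TPM) overlapped with Vldlr (56.2 to 83.1 TPM). The other neighbors in xNMJ overlapped, as did Lrp1 with Scarb1 and Scarb1 with Abca1 in NMJ. Genes that overlapped are not ordered beyond their spread. Every Lrp1 value (from 3.34 TPM) exceeded every Abca1 value (up to 1.996 TPM) in 10m NMJ, but not in 30m NMJ. At the low end Lrp1 (4.79 TPM in 10m NMJ), Scarb1 (3.26) and Abca1 (1.10) were near the middle of the tested genes or below it.

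**Figure D3:**
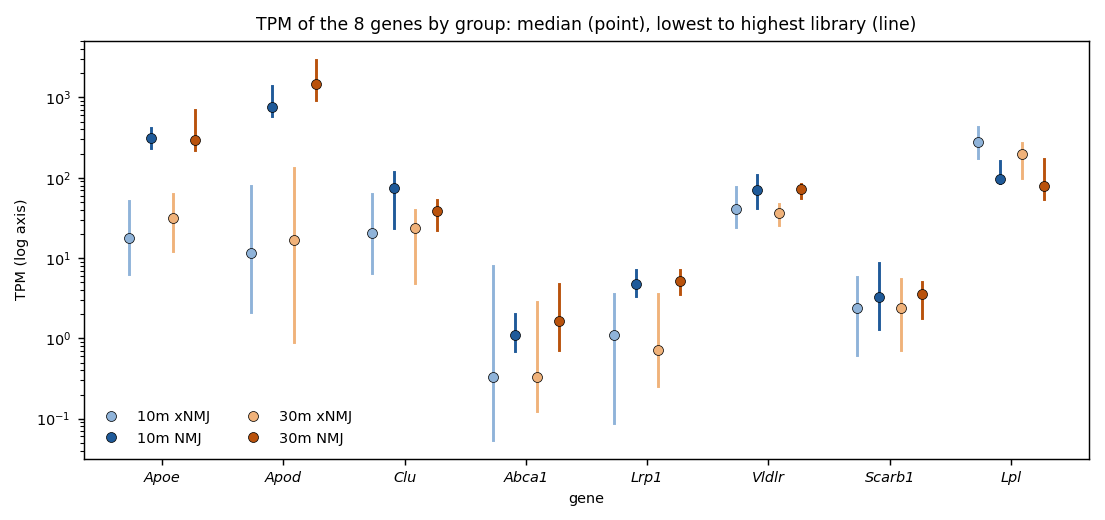
TPM (log axis) of the 8 genes by group, with points for the median and lines from the lowest to the highest of 8 libraries. Lpl leads in both xNMJ groups (275 and 199 TPM), and Apod leads in both NMJ groups (754 and 1489 TPM).

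Age changed none of the 8 genes past the threshold in either region, and few genes passed at all. In NMJ, edgeR called 0 of 13990 genes between 30 and 10 months (0%), with 372 at an unadjusted p under 0.05, while DESeq2 called 0 and limma on log2(TPM + 1) called 3. In xNMJ it called 6 genes (0.0429%), of which 5 were higher (0.0357%) and 1 lower (0.00715%) at 30 months, with 1322 at an unadjusted p under 0.05, and DESeq2 called 84. For the interaction of age and region it called 0 (0%), with 708 at an unadjusted p under 0.05, and DESeq2 called 10. DESeq2 and limma also called 0 of the 8 members in these 3 comparisons. The ages overlapped for all 8 members in both regions. Of all tested genes, 0.00715% in each direction in NMJ, and in xNMJ 0.00715% lower and 0% higher, did not overlap. At an unadjusted p under 0.05, edgeR listed 1 member in NMJ (Clu), 2 in xNMJ (Apoe and Lpl) and 0 for the interaction. Clu had a log2 fold change of -0.96 ± 0.39 from 10 to 30 months in NMJ. In these NMJ libraries the 7 fibroblast markers had a median log2 fold change of -0.60 with age. Of them, 0 lay above 0, 0 were called by edgeR and 1 had an unadjusted p under 0.05. The 6 endothelial markers had -0.45 (1 of 6 above 0, 0 called), and the other marker lists tested lay between -0.46 and 0.54. In xNMJ, Apoe had 0.75 ± 0.33 and Lpl -0.52 ± 0.22, and Lpl had -0.37 ± 0.22 in NMJ. In the same xNMJ libraries, the 5 blood genes had a median log2 fold change of 1.51 with age, and 1.44 without 30m xNMJ replicate 5. Of these genes, 5 of 5 lay above 0, 0 were called by edgeR and 4 had an unadjusted p under 0.05. Their summed CPM in 30m xNMJ was highest in replicate 2 (19369, the next 6908). The 8 macrophage markers had 0.99 (0 called, 2 at an unadjusted p under 0.05), and 0.52 without 30m xNMJ replicate 5. The 6 subsynaptic genes had 2.19, with Etv5 called (4.61 ± 0.87, edgeR adjusted p = 0.0309). Without 30m xNMJ replicate 5 they had 0.33, and Etv5 was not called (edgeR adjusted p = 0.104). The 6 endothelial markers had -0.51 (2 of 6 above 0), the 7 fibroblast markers -0.24 (2 of 7) and the 8 Schwann cell markers -0.07 (4 of 8). Without 30m xNMJ replicate 5 these were -0.54, -0.32 and -0.63, with 0 called. The adipocyte list had 0.40, and the remaining lists lay between -0.08 and 0.03. The part of these lists in the values of Clu, Apoe and Lpl was not tested. Apod was above the 10m NMJ median in all 8 libraries of 30m NMJ, 4 of which exceeded every 10m NMJ library, and its log2 fold change there was 0.87 ± 0.58. In xNMJ the value for Apod was 0.63 ± 0.59, -0.43 ± 0.52 without 30m xNMJ replicate 5 and 1.48 ± 0.57 without 10m xNMJ replicate 7. Apoe had 0.19 ± 0.32 in NMJ, and -0.03 without 30m NMJ replicate 7. The remaining values of Lrp1, Vldlr and Scarb1 between ages lay between -0.25 and 0.06. Abca1 had 0.58 ± 0.69 in NMJ, and 0.17 without 30m NMJ replicate 7. In xNMJ Abca1 had -0.58 ± 0.70, which was 0.87 without 10m xNMJ replicate 1 and -1.27 without 30m xNMJ replicate 4.

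The difference of the regions was set beside 6 lists of other lipid-handling genes, of which 100 were in the files and 76 were tested. At 10 months 6 of these were called higher in NMJ and 7 lower, 17.1% of the 76 where 11.5% of all tested genes were called. At 30 months 2 were called higher and 6 lower, 10.5% of the 76 where 9.26% of all tested genes were called. Between ages and for the interaction 0 of 76 were called by edgeR, with 3, 4 and 4 genes at an unadjusted p under 0.05 in NMJ, in xNMJ and for the interaction. DESeq2 and limma also called 0 in these 3 comparisons.

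Of the other apolipoproteins, only Apol6 among 15 passed the filter on low counts. Apol6, an intracellular family member, averaged 23.4 ± 10.9 CPM (SD, n = 8) in xNMJ and 8.14 ± 5.18 CPM in NMJ at 10 months, which gave -1.51 ± 0.37 on the log2 scale (edgeR adjusted p = 0.00471). At 30 months the value was -0.49 ± 0.36 and was not called (edgeR adjusted p = 0.488). Apoc4 was at 0 in all 32 libraries and Apoc1, which lies next to Apoe in the genome, at 0 in 20, with at most 3.78 CPM in the others. Hepatocyte markers were also near 0, with at most 2.17 CPM for the sum of Alb, Ttr, Fgb and Serpina1a in any library. Of the apolipoproteins listed, Apoe, Apod, Clu and Apol6 passed the filter.

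Of the 15 other lipoprotein and scavenger receptors tested, 3 were called higher and 2 lower in NMJ at 10 months, and 2 were called lower at 30 months. Cd36, the fatty acid and scavenger receptor, was lower in NMJ at both ages, with -1.38 ± 0.24 at 10 months (edgeR adjusted p = 1.31e-04) and -1.48 ± 0.24 at 30 months (edgeR adjusted p = 7.27e-05). At 10 months its medians of 387 CPM (xNMJ) and 157 CPM (NMJ) came from groups that did not overlap. Lrp4, the muscle receptor of agrin, was also lower, with medians at 10 months of 4399 CPM (xNMJ) and 1114 CPM (NMJ). Its log2 fold change was -2.0 ± 0.46 at 10 months (edgeR adjusted p = 0.00288) and -1.91 ± 0.46 at 30 months (edgeR adjusted p = 0.00502). Lrp4 varied widely between libraries, from 1541 to 8666 CPM in 10m xNMJ, and with insert size as a covariate the call at 10 months was lost (edgeR adjusted p = 0.167), as was the call at 30 months with limma on either TPM scale. Higher in NMJ at 10 months were Msr1, a macrophage scavenger receptor (5.58 ± 1.38, edgeR adjusted p = 0.00533), Lrp10 (1.56 ± 0.43, edgeR adjusted p = 0.0125) and Lrp12, which was named after its values were seen (4.62 ± 1.42, edgeR adjusted p = 0.0278). Msr1 and Lrp12 were close to the floor in 10m xNMJ, with medians of 0 CPM, so that their fold changes rest on few counts. Msr1 was 7.13 without 10m xNMJ replicate 1 and 4.93 without 10m NMJ replicate 1, and its call was lost with limma on log2(TPM + 1). The call of Lrp12 held in 26 of 32 fits without 1 library and was lost with the replicate block and with limma on log2(TPM + 1). Its value was 3.86 without 10m NMJ replicate 7 (not called) and 5.66 without 10m xNMJ replicate 5. The call of Lrp10 was lost with insert size as a covariate. Lrp8, which shares reelin as a ligand with Vldlr, had medians at 10 months of 5.33 CPM (xNMJ) and 2.99 CPM (NMJ) and was not called at either age.

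Of 9 ligands, chaperones, adaptors and regulators of these receptors, Reln and Sort1 were called higher at 10 months and Reln at 30 months. Reln encodes reelin, the ligand of Vldlr and Lrp8, and had medians of 1.17 (xNMJ) and 7.19 (NMJ) CPM at 10 months, and of 1.30 and 7.26 CPM at 30 months. Its log2 fold change was 2.06 ± 0.62 at 10 months (edgeR adjusted p = 0.0236) and 2.40 ± 0.64 at 30 months (edgeR adjusted p = 0.0109). At 10 months the value was 2.82 without 10m xNMJ replicate 5, and the call was lost without 10m NMJ replicate 3 (1.82) or replicate 6 (1.85). Sort1, a sorting receptor, had 1.18 ± 0.34 at 10 months (edgeR adjusted p = 0.0191).

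In the sterol export, LXR and lysosomal cholesterol list, to which Abca1 belongs by function, edgeR called 0 of 15 tested genes at either age, with 1 at an unadjusted p under 0.05 at each age. DESeq2 called 0 at 10 months and 1 at 30 months, and limma on log2(TPM + 1) called 2 and 3. Abcg1, which exports sterol to HDL, was close to the floor, with medians at 10 months of 1.09 CPM (xNMJ) and 0.740 CPM (NMJ). Nr1h3, which encodes the sterol-sensing receptor LXR alpha, had medians of 7.50 (xNMJ) and 3.58 (NMJ) CPM at 10 months and of 5.66 and 12.3 CPM at 30 months, with ranges that overlapped between regions. Its means at 30 months were 12.6 CPM (xNMJ) and 12.7 CPM (NMJ), and the fitted log2 fold change was 0.01 ± 0.56, not called.

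Among 12 tested partners and regulators of lipases, 3 were called lower and 1 higher in NMJ at 10 months, and 3 were called lower at 30 months. Pnpla2, the adipose triglyceride lipase, did not overlap between regions at either age, with medians of 78.8 (xNMJ) and 32.2 (NMJ) CPM at 10 months and of 75.6 and 37.3 CPM at 30 months. Its log2 fold change was -1.18 ± 0.19 at 10 months (edgeR adjusted p = 3.97e-05) and -1.14 ± 0.19 at 30 months (edgeR adjusted p = 9.42e-05). Fabp3, the fatty acid binding protein of muscle, had -1.29 ± 0.32 at 10 months (edgeR adjusted p = 0.00498) and -1.55 ± 0.32 at 30 months (edgeR adjusted p = 0.00116). Ppara, a transcription factor of fatty acid oxidation, was called lower at 10 months (-3.03 ± 0.72, edgeR adjusted p = 0.0036) and Lipe, the hormone-sensitive lipase, at 30 months (-1.61 ± 0.40, edgeR adjusted p = 0.00668). Sel1l, which is needed for the maturation of Lpl in the endoplasmic reticulum, was the one gene called higher (0.85 ± 0.26 at 10 months, edgeR adjusted p = 0.0243). That call was lost in a fit of only the groups compared, with insert size as a covariate, and without 10m xNMJ replicate 2 (0.77), 6 (0.77) or 8 (0.76). At 30 months the calls of Pnpla2 and Lipe were lost with limma on either TPM scale. Gpihbp1, which anchors Lpl to the capillary wall, had medians at 10 months of 24.4 CPM (xNMJ) and 28.5 CPM (NMJ), and Angptl4, an inhibitor of Lpl, had 5.93 and 7.43 CPM, neither of which was called at either age.

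Of 24 genes of cholesterol synthesis and SREBP control, Fdft1, the squalene synthase, was called lower at both ages (-1.07 ± 0.27, edgeR adjusted p = 0.00638, and -0.87 ± 0.27, edgeR adjusted p = 0.0334). At 30 months that call was lost in 6 of 8 alternatives and held in 25 of 32 fits without 1 library, with the smallest change, -0.71, without 30m xNMJ replicate 2. At 10 months it was lost with limma on either TPM scale. Srebf1, a transcription factor of lipid synthesis, was called higher at 30 months (1.45 ± 0.46, edgeR adjusted p = 0.0408), and in 21 of 32 fits without 1 library, with the lowest value, 1.18, without 30m NMJ replicate 7. Its call was also lost in a fit of only the groups compared and with insert size as a covariate. The median log2 fold change of this list was 0.14 at 10 months and 0.02 at 30 months, near that of all tested genes.

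**Figure D4:**
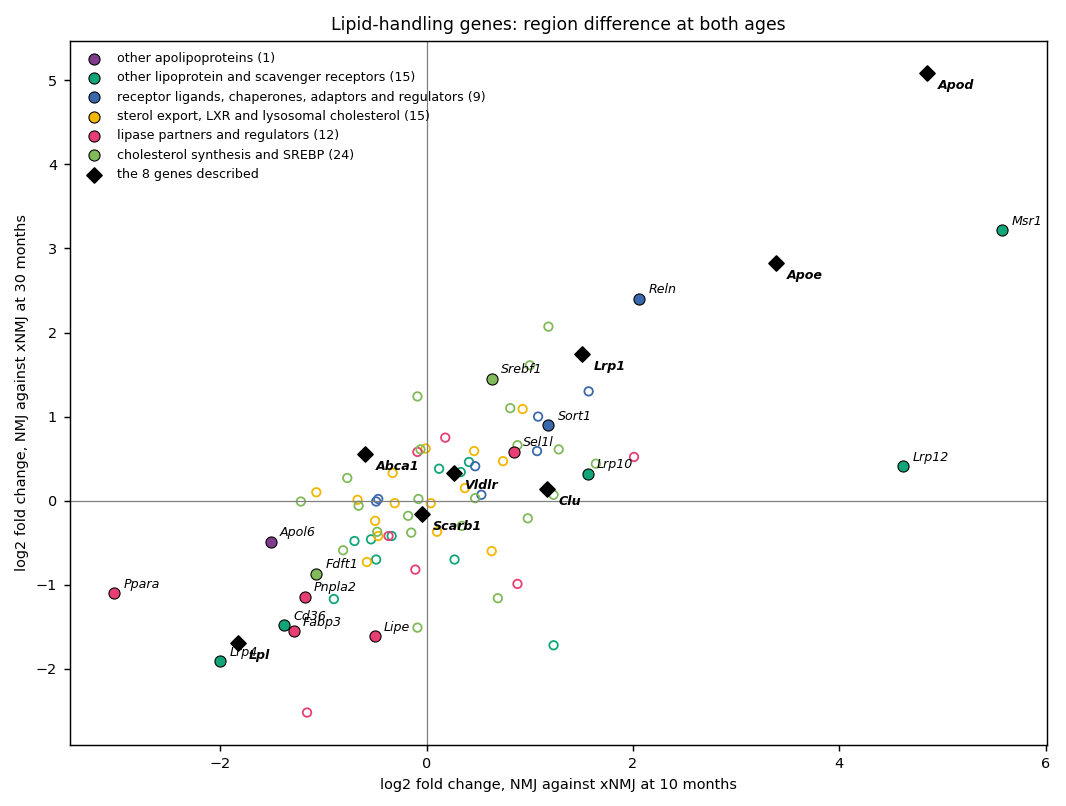
Log2 fold change of NMJ against xNMJ at 10 months (x axis) and at 30 months (y axis) for the 76 tested genes of 6 lipid lists (circles, filled and named where called at either age) and the 8 genes described (diamonds). Cd36, Pnpla2, Fabp3, Fdft1 and Lrp4 lie with Lpl at the lower left, and Reln lies with Lrp1, Apoe and Apod at the upper right.

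Markers of other cell types differed between the regions in the same libraries. The summed CPM of 8 Schwann cell markers ranged from 9.14 to 30.7 in 10m xNMJ (median 17.4) and from 233 to 347 in 10m NMJ (median 256). At 30 months it ranged from 5.77 to 39.8 in xNMJ (median 14.5) and from 195 to 276 in NMJ (median 224). At both ages 7 of the 8 genes were called higher in NMJ. The 7 fibroblast markers summed to medians of 174 (xNMJ) and 1291 (NMJ) CPM at 10 months and of 167 and 1091 CPM at 30 months, with 5 called higher at 10 months and 4 at 30 months. Their most abundant gene was Dcn, which encodes decorin (2.88 ± 0.28 at 10 months, edgeR adjusted p = 5.11e-09). The 8 macrophage markers summed to medians of 14.4, 104, 14.9 and 95.7 CPM in the same order, led by Mrc1, with 5 and 4 called higher and with Adgre1 at 0 in all libraries of 30m xNMJ. The regions did not overlap in the Schwann cell and fibroblast sums at either age. In 30m xNMJ replicate 5 these sums were 39.8 CPM for Schwann cells and 324 CPM for fibroblasts, the highest of its group for both.

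The 6 muscle fiber markers were lower in NMJ, with medians of 96952 (xNMJ) and 59503 (NMJ) CPM at 10 months and of 98283 and 55407 CPM at 30 months, and 4 of 6 were called lower at both ages. Their most abundant gene was Tnnt3, a troponin subunit of fast fibers. The 6 genes of subsynaptic nuclei were all called higher at both ages, with medians at 10 months of 7.90 CPM (xNMJ) and 1012 CPM (NMJ), which fits the labels of the regions. Etv5 had the highest mean CPM of this list over all libraries, with medians at 10 months of 0.155 CPM (xNMJ) and 357 CPM (NMJ). Of 6 endothelial markers, led by Cdh5, 0 were called by edgeR at 10 months and Cdh5 was called lower at 30 months, and their sums had medians of 88.4, 68.2, 93.0 and 46.1 CPM in the order above. The 6 adipocyte markers, led by Fabp4, had medians of 233, 150, 258 and 140 CPM, with Plin1 called lower at 10 months and Plin1 and Fabp4 at 30 months. The defining adipocyte gene Adipoq was at 0 in all libraries of 10m xNMJ, and Lep in all NMJ libraries of both ages. The 5 pericyte and smooth muscle markers, led by Rgs5, had medians of 146, 147, 154 and 128 CPM, with Cspg4 called higher at both ages and Rgs5 lower at 30 months. Of 4 muscle stem cell markers (medians 15.0, 62.7, 17.0 and 43.6 CPM), Sdc4 was called higher at both ages. It was the most abundant of them in every group, with medians of 10.5, 60.5, 12.6 and 38.5 CPM in the same order. The other 2 tested genes of that list were not called. The 5 blood genes, led by Hba-a2, had medians of 1729, 1564, 3891 and 2072 CPM, and edgeR called 0 of them at either age. The part of these cell types in the levels of Apoe, Apod, Clu, Lrp1 and Lpl was not tested.

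**Figure D5:**
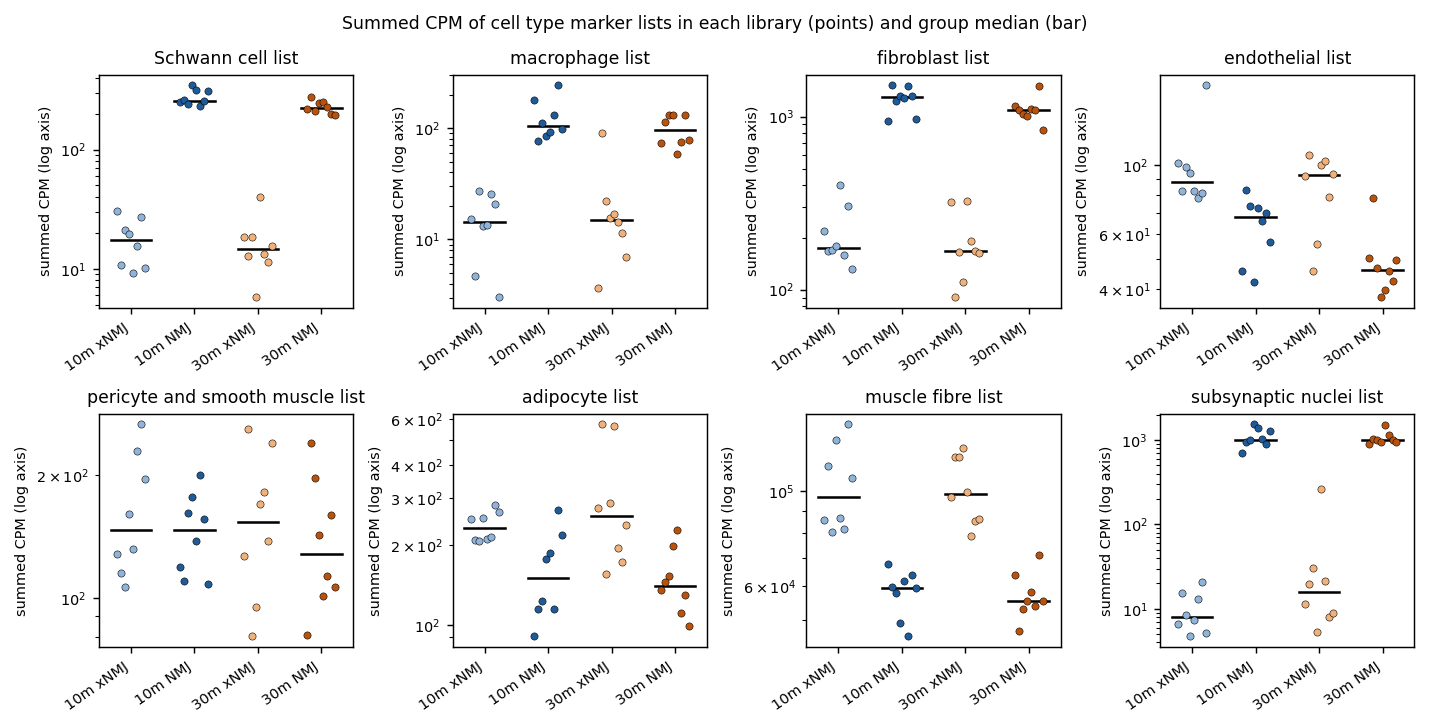
Summed CPM (log axis, with its own range in each panel) of 8 lists of cell type markers in each library of the 4 groups, with bars for the medians. The Schwann cell list (medians 17.4, 256, 14.5 and 224 CPM) and the fibroblast list are higher in NMJ, and the muscle fiber list is lower.

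After the group means were removed, the 8 genes varied largely independently of each other across the 32 libraries. Of the 28 pairs, Vldlr and Scarb1 had the highest Pearson correlation of log2 CPM (r = 0.57, Spearman's rho = 0.53, r = 0.49 without the 2 libraries farthest from the median), followed by Abca1 and Lrp1 (r = 0.40, rho = 0.38, and r = 0.26 without 2 libraries). Apoe and Apod, which differed between the regions in the same direction, had r = 0.26 (rho = 0.38). The lowest value was that of Clu and Lpl (r = -0.35, rho = -0.36). These values share the libraries, their depth and their scaling, and are descriptions. Among 6612 genes that averaged 10 CPM or more, those most like each member in these deviations were Krit1 (r = 0.78), Rnase4 and Tmem208 for Apoe, and Prr29 (r = 0.72), Pxn and Crym for Apod. They were Nfe2l2 (r = 0.67) and Arhgap10 for Clu, Il6ra (r = 0.62), Nrbp1 and Amotl2 for Abca1, and Yif1b (r = 0.72), Rab5a and Gpr108 for Lrp1. For Vldlr they were Flot1 (r = 0.72), Srsf7 and Mmd, for Scarb1 Akap6 (r = 0.63), Gars and Prkcsh, and for Lpl Atp5b (r = 0.75), Hadhb and Mdh2. Without the 2 libraries farthest from the median, r was 0.65 for Krit1 with Apoe and 0.66 for Atp5b with Lpl, and Spearman's rho over all libraries was 0.67 and 0.68. The likeness was weaker by rank for Apod, with a rho of 0.42 for Prr29 and 0.35 for Crym, and for Abca1 and Amotl2 r was 0.59 over all libraries and 0.30 without these 2.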

How the data were processed

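The authors made SMART-Seq v4 libraries from laser-captured regions, trimmed single-end reads with Cutadapt (1.9.1), mapped them with kallisto (0.43.1) to protein-coding transcripts of GRCm38, and summed transcripts per gene; a read on several transcripts was divided among them, and strand was not used. They deposited a table of counts and one of TPM values, which are corrected for transcript length. Genes were tested where at least 8 libraries had at least 1 CPM. Counts of the 4 groups were fitted together with edgeR (4.0.16, R 4.3.3; TMM, quasi-likelihood test), with Benjamini-Hochberg adjustment over 13990 genes and a threshold of 0.05. SE is the absolute log2 fold change divided by the square root of F. DESeq2 (1.42.0) and limma (3.58.1) on log2(TPM + 1) or log2(TPM + 0.1) were alternatives, as were other size factors, no filter, only the groups compared, the replicate number as a block, insert size as a covariate, and each library left out. In simulated counts for the comparison of regions at 10 months, edgeR recovered 50% of 200 genes changed 4-fold among 13990, with 3 false calls. No pair of libraries of a group agreed within sampling noise (chi-square per gene at least 17.0 over 112 pairs). Gene positions are from GENCODE M21. The members and the gene lists were chosen with earlier results of these data known. Genes named are the members, up to 4 per lipid list and comparison with the smallest p among those called with a group mean of at least 1 CPM, Lrp4, Lrp8, Apoc1, Abcg1, Gpihbp1, Angptl4 and Nr1h3, the 3 genes most like each member, and each marker list's most abundant gene and markers at 0. Some genes that this rule names are not reported here. Proteins were not analysed here.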

Additional observations from a re-analysis of the deposited data

Results flagged for a closer look

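Apod in 30m NMJ replicate 7 stood at 2578 CPM, far above the next highest library of its group (1371 CPM). On the log2 scale, on which the libraries were examined, the gap was 0.53 of the range of the group, just above Dixon's 95% critical value for 8 libraries. It was 1 of 32 combinations of gene and group that were examined, and chance flags about 1 in 20. Without this library the log2 fold change of Apod between regions at 30 months was 4.86, and between ages in NMJ 0.64. The same library was also the highest of its group for Apoe, Abca1 and Clu. It had the highest summed CPM of its group for fibroblast (1504, median 1091), blood (5727, median 2072) and muscle fiber markers (71044, median 55407). Its Schwann cell sum of 198 CPM lay below the group median of 224 CPM. The part of these in its Apod value was not tested.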

How the results depend on the processing

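The calls of Apoe, Apod, Lrp1 and Lpl between regions held at both ages in all 32 fits without 1 library and in the 8 alternatives, and none changed direction. With limma, genes called at 10 months went from 1615 to 2918 on log2(TPM + 1) and 3014 on log2(TPM + 0.1), and listed lipid genes from 13 to 22 and 23. At 30 months genes went from 1295 to 3561 and 3681, and listed genes from 8 to 20 in both. Of the limma calls on log2(TPM + 1), 91.9% at 10 months and 98.3% at 30 months were higher in NMJ, against 56.3% and 54.1% with edgeR, and the median of all genes was shifted by 0.37 and 0.49 (0.57 and 0.73 on log2(TPM + 0.1)). With insert size as a covariate, which differed between regions (medians of the average insert sizes in the labels, whose unit is not given there, of 93.5 in xNMJ and 117.5 in NMJ at 10 months, 96.0 and 107.0 at 30 months), 1135 genes (434 of them lower) and 10 listed genes were called at 10 months, and 1231 and 6 at 30 months. With only the groups compared, 1147 genes and 6 listed genes were called at 30 months. Between ages in NMJ, 0 genes became 3 with limma on log2(TPM + 1). In xNMJ, 6 became 84 with DESeq2, 2 with insert size as a covariate, and 0 with only the groups compared and with limma on either scale. For the interaction, 0 became 10 with DESeq2. The causes were not tested. The coefficients of variation without a group's highest library, and the marker lists between ages in xNMJ without 30m xNMJ replicate 5, were chosen after seeing the data. Without 1 library, genes called ranged from 1433 to 1708 at 10 months, from 1106 to 1475 at 30 months, from 0 to 0 between ages in NMJ, from 0 to 9 in xNMJ and from 0 to 1 for the interaction. At 10 months, 4 to 5 members and 11 to 15 listed lipid genes were then called, and at 30 months 4 to 4 members and 6 to 11 listed genes. Without 30m xNMJ replicate 5 the genes called were 1708, 1475 and 9 in xNMJ.

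With the replicate number as a block, 1032 genes were called higher and 797 lower at 10 months, 870 and 661 at 30 months, and 0 for the interaction, and no call of a member changed. Deviations of libraries with the same number had a mean correlation of 0.089 at 10 months and 0.081 at 30 months (-0.013 and -0.011 for other numbers), over 0.1 in 4 and 1 of 8 pairs. Of 8 libraries per group, 4 correlated best with their own number. Whether the number marks an animal is not given in the labels. Depth limits the low members most: the lowest library held 2 counts for Abca1, 4 for Apod, 8 for Lrp1 and 10 for Scarb1.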
